A study of Solanum lycopersicum with 16 samples.

Results

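SlIDD9 (IDD9, Solyc06g072360) and SlSTOP1 are 2 of the 22 target genes whose transcripts were quantified by qRT-PCR in stressed tomato plants. Both were chosen by name and not by their values, though earlier results of these data were known. The study describes the proton tolerance factor STOP1 of Arabidopsis as a close homolog of SlIDD9. In the study's own alignment, however, a conserved zinc finger stretch of SlIDD9 matches that of SlIDD12 and differs from that of Arabidopsis STOP1. The study also reports synteny of SlIDD9 with SlIDD-like1. It describes SlSTOP1 as a near relative of the IDD factors, and neither kinship was tested here. The plants were 3-week-old M82 seedlings grown in a greenhouse. The stressed groups were low pH (tap water at pH 4.2), salt (water with 200 mM NaCl, its pH matched to that of the control water) and flood (roots submerged), and the control plants were kept water saturated. Roots and shoots of each were sampled after 2 h and 24 h, which gives 16 groups. SlIDD9 was read from 52 of its 64 wells and SlSTOP1 from 59 of 64, and both had values in all 16 groups. SlIDD9 lies on chromosome 6, from 42301043 to 42303341 in assembly SL4.0, and its transcript belongs to the RefSeq gene LOC101245262. No locus of its own is given for SlSTOP1, because the deposited fold change sheet repeats the SlIDD9 locus name beside it. No marker of roots or shoots is among the targets, so the tissue labels could not be checked by expression.

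IDD proteins are plant C2H2 zinc finger transcription factors named after INDETERMINATE1 of maize, a regulator of the change to flowering. STOP1 is a related zinc finger protein known from Arabidopsis, where it is needed for tolerance of protons and aluminium and switches on ALMT1, a malate transporter whose product binds aluminium outside the root. Given the kinship that the study describes, the question put to both tomato genes is whether low pH moved them more than salt or flood did.

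The measured value is the Ct, the PCR cycle at which a well crosses the detection threshold, so that a lower Ct means more transcript. A level is given here as the mean Ct of ubiquitin minus the Ct of the gene, on the log2 scale, with ubiquitin from the same plate, group and time. SlIDD9 and its ubiquitin were on the first plate, SlSTOP1 and its ubiquitin on the second. Up to 4 wells stand behind each group. The study states 4 biological samples and 2 technical replicates, but no label says which plant a well came from. The p-values therefore measure the spread between wells and are too small where wells share a plant. Ubiquitin did not move alike on both plates. In low pH roots against control roots at 2 h the first plate showed a ubiquitin change of -1.95 cycles and the second one of 1.41 cycles. At 24 h these were -3.97 and -0.09 cycles. Over the 12 stress comparisons the change on the first plate less that on the second ran from -3.88 cycles (low pH roots at 24 h) to 1.68 cycles (salt shoots at 24 h). The part of these plate differences in the results was not tested.

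SlIDD9 varied over a range of 7.71 on the log2 scale, or 209-fold, across the 16 groups. The level was highest in low pH shoots at 24 h, with a mean of -6.58 ± 0.32 (SD of the gene's Ct, n = 3 wells). Flood shoots followed, with -7.40 ± 0.61 at 24 h (n = 3) and -7.70 ± 0.10 at 2 h (n = 4). Low pH shoots at 2 h (-8.58), control shoots at 2 h (-8.62) and low pH roots at 2 h (-8.77) followed, and did not differ among themselves beyond 1 SD. A dense middle block held the roots at 24 h, namely flood (-9.57), salt (-9.68), control (-9.68) and low pH (-10.09), together with flood (-9.95) and salt (-10.14) roots at 2 h. Control shoots at 24 h (-10.73) and control roots at 2 h (-12.33) lay below this block. The lowest 2 groups were salt shoots, at -13.07 ± 0.94 after 24 h (n = 3) and -14.29 ± 2.59 after 2 h (n = 4). Of the 15 steps between neighbours in this order, 6 were larger than the larger SD of the pair.

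SlSTOP1 varied less, over 3.79 on the log2 scale or 13.8-fold. Its highest mean was in low pH roots at 2 h, at -2.74 ± 2.06 (SD, n = 4 wells), and its lowest in control roots at 2 h, at -6.53 ± 1.96 (n = 4). Flood shoots came next, at -3.12 ± 0.12 after 24 h (n = 4) and -3.59 ± 0.08 after 2 h (n = 3). The other 12 groups lay between -4.07 and -5.94. Only 1 of the 15 steps between neighbours exceeded the larger SD of the pair, that between flood shoots at 24 h and at 2 h. The top rank of low pH roots rests on ubiquitin of the second plate: with ubiquitin over both plates, or with no reference gene, flood shoots at 24 h were highest. The top group of SlIDD9 was low pH shoots at 24 h under all 3 of these references.

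**Figure D1:**
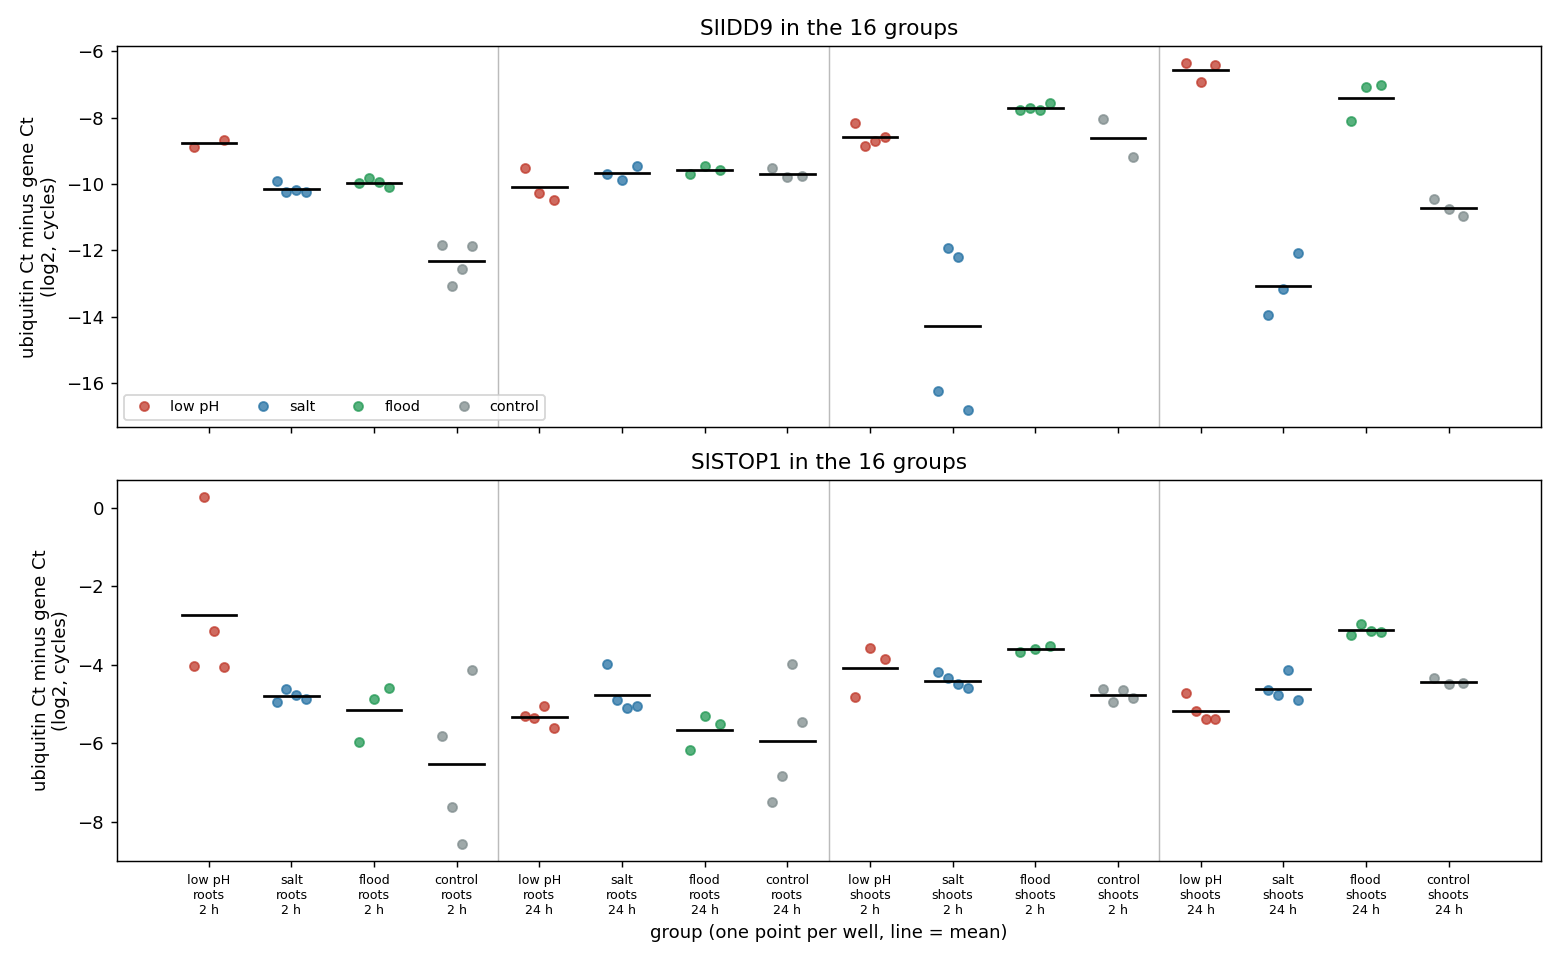
Level of SlIDD9 (top) and SlSTOP1 (bottom) in the 16 groups, as ubiquitin Ct minus gene Ct on a log2 scale (y axis), with one point per well and a line at each mean; groups run by tissue, time and stress with the control last of each block (x axis). The SlIDD9 mean is lowest in salt shoots at 2 h (-14.29) and highest in low pH shoots at 24 h (-6.58), and 1 SlSTOP1 well of low pH roots at 2 h lies above the other 3.

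In low pH roots SlIDD9 rose after 2 h. Its Ct was 23.43 and 23.21 in the 2 measured wells of low pH roots, against 28.32, 29.57, 29.07 and 28.38 in control roots. The low pH wells crossed the threshold 5.51 cycles earlier on average and did not overlap the control wells, while ubiquitin also came 1.95 cycles earlier. Relative to ubiquitin the level was 11.8-fold higher (log2 fold change 3.56 ± 0.50 SE, adjusted p = 0.0004, limma). In RNA of whole roots, more cells that express a gene and more transcript per cell cannot be told apart. In size it ranked 4 among the 22 changes, of which 63.6% were called, with a median of 1.18. With times as labelled, which pools all 8 rows of the first plate, the value was 1.63, beside 1.20 in salt roots and 1.30 in flood roots. At 24 h SlIDD9 did not pass the test: the Ct was 23.27, 24.00 and 24.22 in low pH roots, against 27.23, 27.50 and 27.47 in control roots. The gap of 3.57 cycles in Ct was offset by the ubiquitin change of -3.97 cycles on that plate, leaving a log2 fold change of -0.40 (95% interval -1.07 to 0.26, adjusted p = 0.28, limma), in a comparison with 63.6% of the targets called. This value turned with the reference, to 1.14 (adjusted p = 0.0097) against the mean of the other targets and 3.57 (adjusted p = 1.3e-05) with none, and without well row 1 it was -0.66 (adjusted p = 0.036).

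SlSTOP1 also rose in low pH roots at 2 h. Its Ct was 21.53, 17.21, 20.63 and 21.54 in low pH roots, against 21.89, 23.69, 24.64 and 20.21 in control roots. One low pH well, in the second row, crossed more than 3 cycles before the other 3, and 1 control well came earlier than 3 of the low pH wells. Relative to mean ubiquitin, which came 1.41 cycles later on this plate, the wells did not overlap and the level was 13.8-fold higher (log2 3.79 ± 1.36 SE, adjusted p = 0.031, limma). The ubiquitin wells of low pH roots were at 17.23, 18.94, 17.01 and 16.77. The late one, also in the second row, raised the mean on which the lack of overlap rests. Without well row 2 the value was 2.05 (adjusted p = 0.15), without row 1 it was 4.37 (adjusted p = 0.069) and without row 3 3.46 (adjusted p = 0.12). With ubiquitin over both plates it was 2.08 (adjusted p = 0.42) and with the other targets as reference 1.23 (adjusted p = 0.40), and the call was also lost at 2.38 with no reference gene. After 24 h its Ct was 21.24, 21.29, 20.97 and 21.55 in low pH roots, against 23.53, 22.87, 20.01 and 21.47 in control roots. The narrow low pH wells lay inside the wide control range, and the log2 fold change was 0.61 (95% interval -0.87 to 2.09, adjusted p = 0.46, limma). It turned to -1.81 (adjusted p = 0.092) with ubiquitin over both plates and -0.51 (adjusted p = 0.56) against the other targets.

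In low pH shoots the timing of SlIDD9 against control was the other way round. The control shoots themselves were at -8.62 at 2 h and -10.73 at 24 h. At 2 h its Ct was 23.12, 23.81, 23.67 and 23.55 in low pH shoots, against 23.70 and 24.84 in control shoots. The wells overlapped relative to ubiquitin, and the log2 fold change was 0.04 (95% interval -1.12 to 1.19, adjusted p = 0.95, limma), with 40% of the targets called. Against the other targets it turned to -0.80 (adjusted p = 0.23). After 24 h its Ct was 22.04, 22.62 and 22.11 in low pH shoots, against 24.91, 25.20 and 25.42 in control shoots. All 3 low pH wells came earlier than every control well although ubiquitin came 1.23 cycles later, which made SlIDD9 17.7-fold higher (log2 4.15 ± 0.33 SE, adjusted p = 2.2e-07, limma). It was the second largest of 20 changes. This was a comparison in which 95% of the targets were called and the median was 2.18, and against the mean of the other targets the rise was 1.13 (adjusted p = 0.0031). With times and gene names taken as the labels give them, which for SlIDD9 at 24 h means the second-plate wells read here as ubiquitin, the values were 1.97 at 2 h and -1.49 at 24 h.

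SlSTOP1 went the other way in low pH shoots at 24 h. Its Ct was 21.54, 22.01, 22.21 and 22.22 in low pH shoots, against 20.39, 20.53 and 20.51 in control shoots. Every low pH well came later than every control well, ubiquitin came 0.78 cycles later too, and SlSTOP1 fell by 0.74 on the log2 scale (± 0.27 SE, 1.67-fold lower, adjusted p = 0.019, limma). It was 1 of 2 targets called lower there, against 17 called higher. The call was lost without well row 2, 3 or 4, at -0.57, -0.70 and -0.68 (adjusted p = 0.22, 0.11 and 0.058), and with ubiquitin over both plates, at -0.76 (adjusted p = 0.16), and in one fit over all 16 groups. At 2 h the Ct was 22.01, 20.77 and 21.04 in low pH shoots, against 20.50, 20.83, 20.55 and 20.74 in control shoots. The log2 fold change relative to ubiquitin was 0.68 (95% interval -0.27 to 1.63, adjusted p = 0.25, limma), and it turned to -0.33 with ubiquitin over both plates, -0.43 against the other targets and -0.62 with no reference gene, none of them called. It was 1.19 (adjusted p = 0.043) without well row 2.

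Under salt SlIDD9 rose in roots and fell in shoots. In roots at 2 h its Ct was 25.02, 25.35, 25.29 and 25.35 under salt, against 28.32 to 29.57 in the 4 control wells, and the level was 4.57-fold higher (log2 2.19 ± 0.38 SE, adjusted p = 0.00027, limma), with 36.4% of the targets called. At 24 h the Ct of salt roots was 25.24, 25.41 and 25.01, and relative to ubiquitin they overlapped control roots, with a log2 fold change of 0.01 (95% interval -0.51 to 0.52, adjusted p = 0.98, limma) where 59.1% were called. In shoots the wells under salt were late and wide. At 2 h their Ct was 32.07, 27.77, 28.03 and 32.65, in 2 pairs more than 3 cycles apart, against 23.70 and 24.84 in control shoots. SlIDD9 was 50.7-fold lower (log2 -5.66 ± 1.63 SE, adjusted p = 0.036, limma), the largest of 22 changes where 31.8% were called. Without well row 1 this was -4.50 (adjusted p = 0.34) and without row 4 -5.65 (adjusted p = 0.079), each of which leaves 1 control well. At 24 h the Ct was 30.36, 29.58 and 28.49 under salt, against 24.91, 25.20 and 25.42 in control shoots, and the level was 5.06-fold lower (log2 -2.34 ± 0.48 SE, adjusted p = 0.00081, limma). That fall came where 90.9% of the targets were called, 18 of 20 of them higher, and with ubiquitin 1.96 cycles later on the first plate.

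SlSTOP1 passed the test in 0 of the 4 salt comparisons (limma, 0 also at an unadjusted p under 0.05). The exact permutation test gave 1 unadjusted p under 0.05, in salt shoots at 2 h, where the wells did not overlap (p = 0.0286, adjusted p = 0.10). In roots its Ct under salt was 19.48, 19.16, 19.32 and 19.42 at 2 h and 19.24, 20.15, 20.36 and 20.29 at 24 h. These wells were tight beside the control roots, and the log2 fold changes were 1.73 (95% interval -0.09 to 3.54) and 1.19 (-0.43 to 2.80). With no reference gene both were called, at 3.26 (adjusted p = 0.0048) and 1.96 (adjusted p = 0.024), as they were without well row 4 at 2 h (2.54, adjusted p = 0.015) and without row 3 at 24 h (2.06, adjusted p = 0.014), while against the other targets the value at 24 h was -0.38 (adjusted p = 0.63). In salt shoots the log2 fold changes were 0.36 (95% interval -0.27 to 0.98) at 2 h and -0.19 (-0.81 to 0.44) at 24 h. Against the other targets these were -0.68 (adjusted p = 0.044) and -1.83 (adjusted p = 2.1e-05), where the other targets of the plate rose relative to ubiquitin, and with ubiquitin over both plates the value at 24 h turned to 0.50 (adjusted p = 0.28).

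Under flood SlIDD9 was higher than control in roots at 2 h and in shoots at 24 h, as under low pH. All stresses of a tissue and time share one set of control wells, whose level differed between times. Control roots were at -12.33 at 2 h and -9.68 at 24 h, beside -9.95 and -9.57 in flood roots. Control shoots were at -8.62 and -10.73, beside -7.70 and -7.40 in flood shoots. Low pH roots were at -8.77 and -10.09, and low pH shoots at -8.58 and -6.58. The part of the control shift was not tested. In roots at 2 h the Ct was 25.13, 24.96, 25.08 and 25.25 under flood, against 28.32 to 29.57 in control roots, a 5.19-fold higher level (log2 2.38 ± 0.40 SE, adjusted p = 0.00013, limma) where 40.9% of the targets were called. At 24 h in roots, where 40.9% were called again, the wells overlapped and the log2 fold change was 0.11 (95% interval -0.40 to 0.62, adjusted p = 0.69, limma). In shoots at 2 h the Ct was 23.48, 23.42, 23.49 and 23.28 under flood, against 23.70 and 24.84 in control shoots. These wells did not overlap, but the log2 fold change of 0.92 (95% interval -0.09 to 1.93) did not pass the test (adjusted p = 0.10, limma; 63.6% called), except without well row 1 (1.43, adjusted p = 0.024), and against the other targets it turned to -0.61 (adjusted p = 0.22). At 24 h the Ct was 23.31, 22.29 and 22.20 under flood, against 24.91, 25.20 and 25.42 in control shoots, and SlIDD9 was 10.0-fold higher (log2 3.32 ± 0.39 SE, adjusted p = 1.4e-05, limma). Of the targets 95.5% were called there, with a median of 2.43, and against the other targets the value was 0.76 (adjusted p = 0.076). With times and gene names as labelled it was -0.91.

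SlSTOP1 rose in flood shoots at both times. At 2 h its Ct was 19.68, 19.59 and 19.52 under flood, against 20.50, 20.83, 20.55 and 20.74 in control shoots, and at 24 h it was 19.35, 19.07, 19.26 and 19.29 under flood, against 20.39, 20.53 and 20.51 in control shoots. Every flood well came earlier than every control well, by close to 1 cycle, on a plate where ubiquitin changed by 0.11 and 0.08 cycles. The level was 2.25-fold higher at 2 h (log2 1.17 ± 0.33 SE, adjusted p = 0.0066, limma) and 2.47-fold higher at 24 h (log2 1.31 ± 0.22 SE, adjusted p = 0.00025). Without well row 3 the value at 2 h was 1.13 (adjusted p = 0.056), and in one fit over all 16 groups neither value was called. Against the mean of the other targets the values were -0.05 (adjusted p = 0.95) at 2 h and -0.61 (adjusted p = 0.0082) at 24 h. In flood roots the wells overlapped those of control roots at both times, with log2 fold changes of 1.39 (95% interval -0.83 to 3.61) at 2 h and 0.29 (-1.62 to 2.19) at 24 h. The 24 h value turned to -0.62 with ubiquitin over both plates and -1.01 against the other targets, neither of them called.

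Over the 12 stress comparisons SlIDD9 was called higher in 5 and lower in 2, and SlSTOP1 higher in 3 and lower in 1. By stress, SlIDD9 was called in 2 of 4 comparisons under low pH, 3 of 4 under salt and 2 of 4 under flood. For SlSTOP1 these counts were 2 of 4 under low pH, 0 of 4 under salt and 2 of 4 under flood. Over all targets 121 of 260 cases were called higher and 35 lower, and between 31.8% and 95.5% of targets were called in each comparison. Under salt, where SlSTOP1 had no call, these shares were 36.4% and 59.1% in roots and 31.8% and 90.9% in shoots, at 2 h and 24 h. Whether either count differs from this background was not tested.

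**Figure D2:**
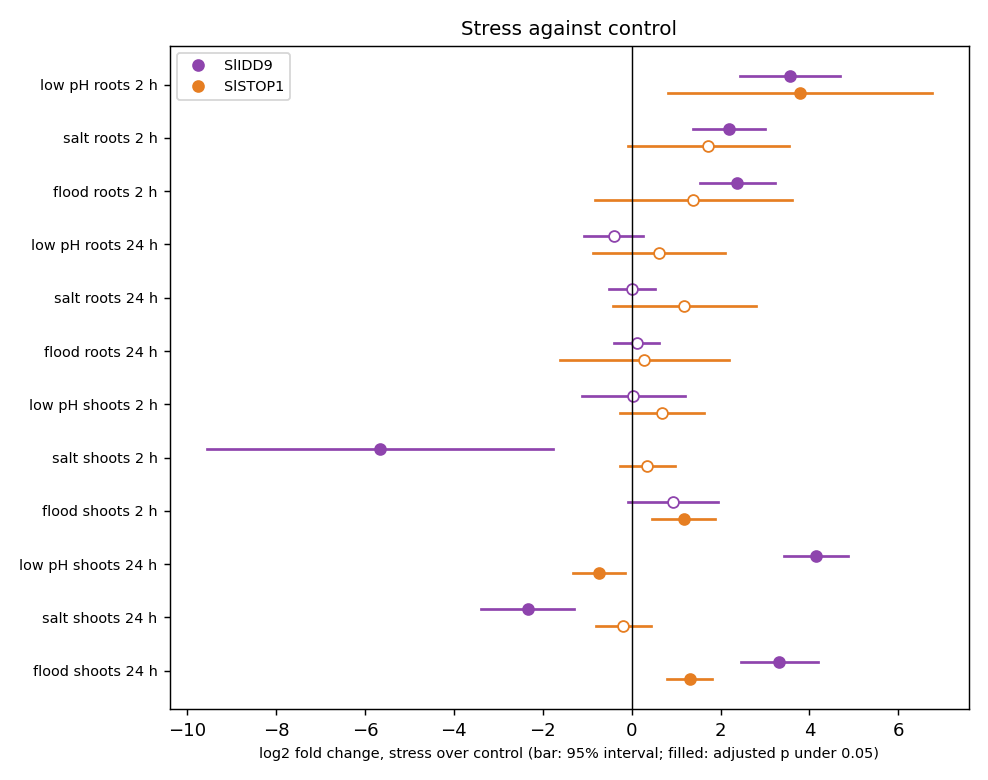
Log2 fold change of SlIDD9 and SlSTOP1 in each stress group over its own control (x axis, log2), for the 12 comparisons (y axis); bars are 95% intervals and filled points have an adjusted p under 0.05. Both genes lie to the right in roots at 2 h, and in shoots at 24 h SlIDD9 reaches 4.15 under low pH and -2.34 under salt while SlSTOP1 stays between -0.74 and 1.31.

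Low pH was then set against the other stresses directly, in the same tissue and at the same time, so that the control wells did not enter. In roots at 2 h SlIDD9 was higher under low pH than under either: 2.58-fold over salt (log2 1.37 ± 0.29 SE, adjusted p = 0.0096, limma; 13.6% of targets called) and 2.27-fold over flood (1.18 ± 0.29 SE, adjusted p = 0.011; 36.4% called). Its low pH Ct of 23.43 and 23.21 lay clear of the 25.02 to 25.35 of salt roots and the 24.96 to 25.25 of flood roots. Only 2 low pH wells had a value, and with the low pH group down to its single well of row 3 or 4 the adjusted p lay between 0.064 and 0.10. Without row 1 the difference from flood was 1.08 (adjusted p = 0.055). In one fit over all 16 groups neither difference was called (adjusted p = 0.084 for salt and 0.14 for flood), while under each of the other references both were. SlSTOP1 differed by more but with a wide spread, by 2.06 over salt (95% interval -0.10 to 4.23, adjusted p = 0.12, limma) and 2.40 over flood (-0.22 to 5.02, adjusted p = 0.12). With no reference gene the difference from salt was -0.88 (adjusted p = 0.41).

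In roots at 24 h no difference between low pH and the other stresses passed the test for either gene (limma; 0 of 4 also at an unadjusted p under 0.05). For SlIDD9 low pH minus salt was -0.41 (95% interval -1.04 to 0.22; 31.8% of targets called) and low pH minus flood -0.52 (-1.17 to 0.13; 59.1% called). For SlSTOP1 these were -0.57 (-1.23 to 0.09) and 0.33 (-0.24 to 0.90). With ubiquitin over both plates the SlSTOP1 difference from salt was called at -2.20 (adjusted p = 0.0045) and that from flood turned to -1.19 (adjusted p = 0.12). With no reference gene they were -1.26 (adjusted p = 0.001) and -0.39 (adjusted p = 0.19). The SlIDD9 values turned with no reference gene, to 1.39 (adjusted p = 0.0011) over salt and 1.08 (adjusted p = 0.011) over flood, beside the first-plate ubiquitin of low pH roots, which at a mean Ct of 13.74 was the earliest of the 16 groups. Without well row 1 they were -0.82 (adjusted p = 0.024) and -0.85 (adjusted p = 0.013).

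In shoots low pH and salt parted widely for SlIDD9. At 2 h its Ct was 23.12 to 23.81 in low pH shoots, against 27.77 to 32.65 in salt shoots, a 52.0-fold difference (log2 5.70 ± 1.14 SE, adjusted p = 0.0083, limma; 25% of targets called). Without well row 1 it was 4.86 (adjusted p = 0.059). At 24 h the Ct was 22.04 to 22.62 in low pH shoots, against 28.49 to 30.36 in salt shoots, an 89.7-fold difference (log2 6.49 ± 0.34 SE). Its adjusted p was 1.3e-31 in limma, which in this comparison (55% of targets called) gave all targets nearly one spread, and 1.8e-12 in one fit over all 16 groups. Both were the largest differences among the 20 targets tested. At 24 h the difference stayed above 5 under each reference tried. SlSTOP1 did not pass the test in either comparison, at 0.33 (95% interval -0.47 to 1.13) at 2 h and -0.55 (-1.14 to 0.04) at 24 h. The 2 h value turned to -0.97 (adjusted p = 0.11) with ubiquitin over both plates and -1.37 (adjusted p = 0.008) with no reference gene. The 24 h value was called under both, at -1.26 (adjusted p = 0.002) and -1.06 (adjusted p = 0.00013).

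Low pH and flood differed less in shoots. SlIDD9 was 1.85-fold lower under low pH than under flood at 2 h (log2 -0.89 ± 0.25 SE, adjusted p = 0.0088, limma; 55% of targets called). Its Ct of 23.12 to 23.81 in low pH shoots nevertheless overlapped the 23.28 to 23.49 in flood shoots, since ubiquitin differed, and with ubiquitin over both plates the value was 0.09 (adjusted p = 0.89). Against the other targets (-0.19), with no reference gene (-0.12) and in one fit over all 16 groups it was not called. Without well row 2 or 4 it was -0.76 (adjusted p = 0.11) and -0.86 (adjusted p = 0.064). At 24 h SlIDD9 was 0.83 higher under low pH (95% interval -0.02 to 1.67, adjusted p = 0.079). SlSTOP1 was 4.12-fold lower under low pH than under flood at 24 h, with a Ct of 21.54 to 22.22 in low pH shoots, against 19.07 to 19.35 in flood shoots (log2 -2.04 ± 0.21 SE, adjusted p = 3.6e-06, limma; 65% called). This difference was called under every reference, between -2.75 and -1.13, and without each well row in turn. At 2 h it was -0.48 (95% interval -1.33 to 0.36), and -1.46 (adjusted p = 0.046) with ubiquitin over both plates.

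**Figure D3:**
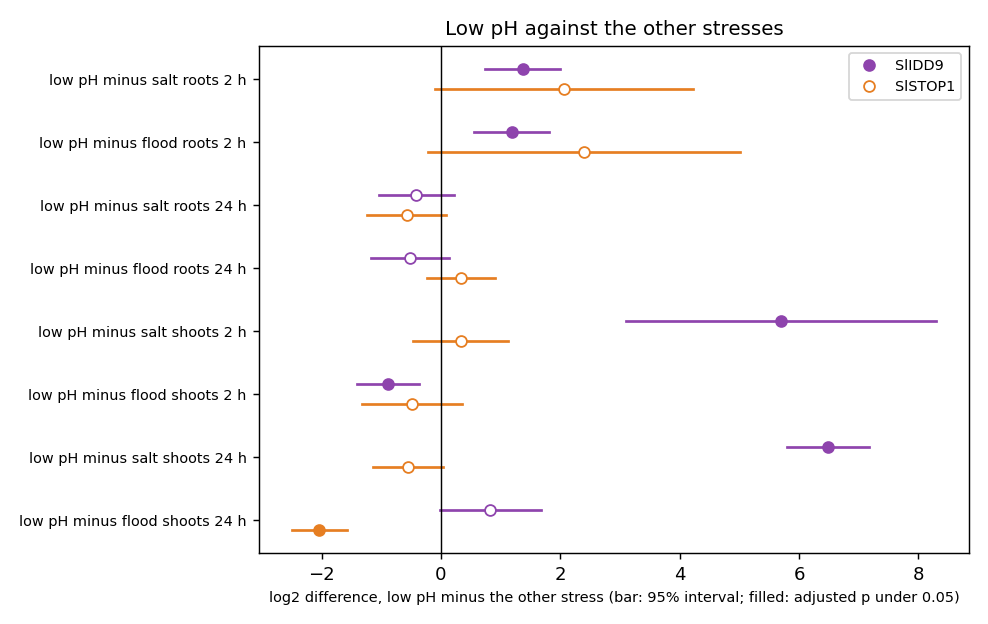
Difference in level of SlIDD9 and SlSTOP1 under low pH minus salt or minus flood, in the same tissue and at the same time (x axis, log2), for the 8 comparisons (y axis); bars are 95% intervals and filled points have an adjusted p under 0.05. SlIDD9 under low pH exceeds salt shoots by 5.70 and 6.49, and SlSTOP1 under low pH lies 2.04 below flood shoots at 24 h.

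The response of SlIDD9 differed between roots and shoots in each of the 6 tests of root response minus shoot response. Tests at the same time share their control wells, and the control levels differed between 2 h and 24 h in both tissues. The part of the controls in these differences was not tested. At 2 h it was larger in roots under low pH (difference 3.52, 95% interval 1.94 to 5.10, adjusted p = 0.00073, limma; 40% of targets called), under salt (7.86, 4.76 to 10.96, adjusted p = 0.00019; 40.9%) and under flood (1.45, 0.14 to 2.76, adjusted p = 0.043; 72.7%). At 24 h it was smaller in roots under low pH (-4.55, -5.48 to -3.62, adjusted p = 4.5e-09; 85%) and flood (-3.21, -4.21 to -2.21, adjusted p = 7.0e-06; 81.8%), and larger in roots under salt (2.34, 1.11 to 3.58, adjusted p = 0.0014; 72.7%). The 24 h differences under low pH and flood depended on the reference, and the part of ubiquitin in them was not tested. Under low pH the value was 0.01 (adjusted p = 0.98) against the other targets and 0.65 (adjusted p = 0.17) with no reference gene. Under flood these were -0.25 (adjusted p = 0.61) and -0.09 (adjusted p = 0.86), and with irregular wells in plate order the flood value was -2.13 (adjusted p = 0.072). The flood difference at 2 h was lost without well row 1, 2 or 3, at 1.14, 1.06 and 1.38 (adjusted p = 0.18, 0.18 and 0.13), and in one fit over all 16 groups. SlSTOP1 passed the test in 0 of the 6 (limma; 1 at an unadjusted p under 0.05, low pH at 2 h, with a difference of 3.10 and a 95% interval of 0.05 to 6.16). It passed without well row 4 under low pH (4.84, adjusted p = 0.012) and salt (2.29, adjusted p = 0.030) at 2 h, and without row 3 under low pH (1.90, adjusted p = 0.017) and salt (2.46, adjusted p = 0.0084) at 24 h.

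The responses of both genes were then set side by side. In each of the 6 root comparisons the interval of the SlIDD9 response minus the SlSTOP1 response included 0, with values between -1.18 (salt at 24 h) and 0.99 (flood at 2 h), and intervals as wide as -3.32 to 2.87 in low pH roots at 2 h. In shoots 4 of 6 intervals did not include 0. The SlIDD9 response was above that of SlSTOP1 by 4.89 (95% interval 4.01 to 5.76) in low pH shoots and by 2.02 (1.07 to 2.96) in flood shoots at 24 h. It was below that of SlSTOP1 in salt shoots, by -6.02 (-9.93 to -2.11) at 2 h and -2.15 (-3.32 to -0.99) at 24 h. Each gene was on its own plate, so plate and gene cannot be told apart in these differences, and no p is given. With one ubiquitin reference for both genes, or none, the values in low pH roots were 3.13 at 2 h and 2.86 at 24 h, both turned from the -0.23 and -1.02 found with each plate's own ubiquitin.

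**Figure D4:**
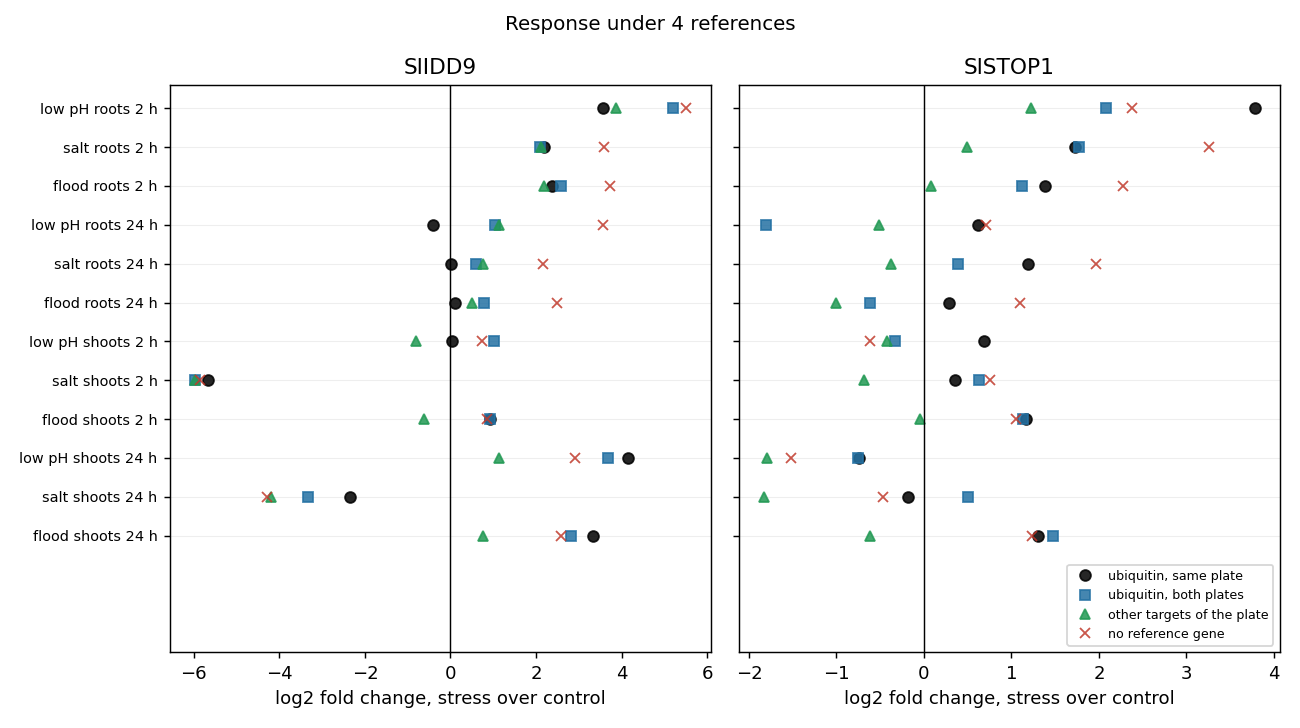
Log2 fold change of SlIDD9 (left) and SlSTOP1 (right) in each stress over control (x axis, log2) under 4 references, for the 12 comparisons (y axis). SlIDD9 in roots at 2 h and in shoots at 24 h keeps its direction under all 4. Against the other targets it changes sign in low pH roots at 24 h and in low pH and flood shoots at 2 h. SlSTOP1 against the other targets ranges from -1.83 to 1.23 and changes sign in 7 comparisons, none of them in roots at 2 h.

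The genes that the study pairs with SlIDD9 by duplication are SlIDD5 (OBSCURAVENOSA, a regulator of bundle sheath extensions in the leaf), SlIDD12, SlIDD13 and SlIDD-like1 (stigma position). Of these, the text of the study names only SlIDD-like1 as syntenic with SlIDD9, and it lists SlIDD5 and SlIDD12 among genes without orthologs within tomato. The study lists M82, the cultivar of these plants, among the mutants of OBSCURAVENOSA. Over the 12 stress comparisons the 4 genes were called higher in 26 and lower in 4 of 48 cases, beside 121 higher and 35 lower of 260 cases for all targets. SlIDD12 was higher in 11 of 12, with log2 fold changes up to 8.27 in low pH roots at 2 h, SlIDD13 in 7 and SlIDD-like1 in 4, and none of these was lower in any. SlIDD5 was higher in 4 and lower in 4, its lowest value being -2.14 in low pH roots at 24 h. In salt shoots, where SlIDD9 fell, 0 of the 4 were called at 2 h and 4 of 4 were higher at 24 h, with a median of 1.31 beside 1.53 for all targets. In low pH shoots at 24 h all 4 were higher, with a median of 2.14 beside 2.18 for all targets and 4.15 for SlIDD9.

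SlIDD3 had the level most like that of SlIDD9 over the 16 groups, with Pearson r = 0.85 between group means, ahead of SlIDD8 (0.59) and SlIDD6 (0.47). All 3 were on the first plate and share its ubiquitin, and the median r of the 19 targets with values in all 16 groups was 0.26. SlIDD3 stayed first by Spearman correlation (0.88) and after the mean of all targets was subtracted (0.76). Like SlIDD9, SlIDD3 was called lower in salt shoots at 2 h (log2 -2.68) and higher in low pH shoots at 24 h (3.28), but in salt shoots at 24 h its value of -0.27 did not pass the test. The targets most like SlSTOP1 were SlIDD12 (r = 0.69), SlIDD17 (0.64) and SlIDD16 (0.64), all on the second plate. By Spearman correlation SlIDD12 ranked 3 (0.53), behind SlIDD17 (0.61) and SlIDD16 (0.61), and after the mean of all targets was subtracted it ranked 4 (0.48), behind SlIDD16 (0.62), SlIDD14 (0.56) and SlIDD17 (0.49). SlSTOP1 and SlIDD9 correlated with r = 0.33, which gave SlSTOP1 rank 5 among the targets most like SlIDD9. By Spearman correlation it had rank 9 (0.28), and after the mean of all targets was subtracted r was 0.03. These correlations describe 16 group means that share ubiquitin, plate and control wells, and carry no p.

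**Figure D5:**
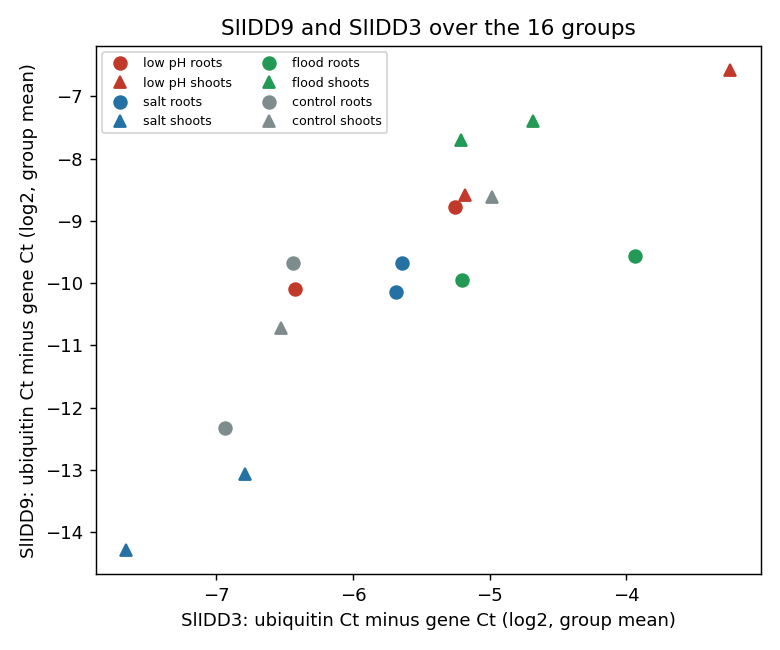
Group mean level of SlIDD9 (y axis) against that of SlIDD3 (x axis), both as ubiquitin Ct minus gene Ct on a log2 scale, with one point for each of the 16 groups (2 points, 2 h and 24 h, for each stress and tissue). Salt shoots lie at the low end and low pH shoots at 24 h at the high end for both genes (Pearson r = 0.85).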

How the data were processed

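The deposited Ct values are raw PCR cycles of single wells, neither counts nor ratios. The methods of the study state SYBR Green qRT-PCR on 1 µg of RNA, with ubiquitin as the reference and ddCt folds. The authors' normalized and fold change sheets hold such relative quantities and their own comparisons, and were not used. Of 1536 wells 1425 had a value (13.65 to 32.65 cycles); 48 wells with irregular names were left out, and 1382 values were used. Groups follow sample titles and source names, which the characteristics fields contradict for some samples. The labels give one time to each plate. Here the upper 4 well rows of both plates were taken as 2 h and the lower 4 as 24 h. Gene positions on the plates were checked, and those of the second plate placed, by setting folds beside those of the study's tables, within 0.05 log2: SlIDD9 matched 8 of 12 and SlSTOP1 4 of 12 at the position used, against at most 1 of 12 at any other. The folds set beside the study's used ubiquitin over both plates, not the same-plate ubiquitin of the results. The match therefore bears on the positions and not on the values given here, and it is no independent evidence.

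Each of 12 stress, 8 direct and 6 tissue comparisons was fitted with limma 3.58.1 (lmFit, eBayes; R 4.3.3) on the Ct of all targets. The log2 fold change is minus the change of Ct plus that of same-plate ubiquitin, whose error was added with Satterthwaite degrees of freedom. Two-sided p-values were corrected within each comparison by Benjamini-Hochberg, at a threshold of 0.05, and intervals are 95%. The fit was also run on simulated wells, drawn independently and with a single spread per gene and plate. That run cannot speak to wells that share a plant or to spreads that differ between groups. The smallest p of an exact test is 0.0286 with 4 wells against 4 and 0.10 with 3 against 3. The members, the lists and the rule for named genes (both members, the 3 targets most correlated with each, and the genes the study pairs with SlIDD9) were chosen with earlier results of these data known. Alternatives were other references, a pooled fit of all groups, well rows as a block, each row left out, wells of irregular name kept in plate order, or excluded from the first plate alone (the last chosen after seeing the data), the exact test, adjustment over all 12 stress comparisons, arithmetic means and times as labelled. Figures used Python 3.11.15, numpy 2.4.6, pandas 2.3.3 and matplotlib 3.10.9.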

Additional observations from a re-analysis of the deposited data

Results flagged for a closer look

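One group held a well far from its others. Ubiquitin of the second plate in low pH shoots at 2 h had a Ct of 17.58 in its first well, against 17.05 to 17.10 in the other 3. It was the only one of 36 groups of 4 wells of SlIDD9, SlSTOP1 and ubiquitin that passed Dixon's criterion, which chance passes in about 5% of groups. The SlSTOP1 well of low pH roots at 2 h with a Ct of 17.21 did not pass it.

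The response of SlIDD9 differed between roots and shoots, by the limma test of the difference itself relative to same-plate ubiquitin, under each stress at each time. Tests at the same time share their control wells. Root response minus shoot response was 3.52 under low pH, 7.86 under salt and 1.45 under flood at 2 h, and -4.55 under low pH, 2.34 under salt and -3.21 under flood at 24 h. At 24 h low pH gave 0.012 against the other targets and 0.65 with no reference gene, and flood -0.25 and -0.094, none of them called. The part of ubiquitin, which on the first plate changed by -3.97 cycles in low pH roots and 1.23 cycles in low pH shoots at 24 h, was not tested.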

How the results depend on the processing

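The SlIDD9 rises in low pH, salt and flood roots at 2 h and in low pH shoots at 24 h, and its fall in salt shoots at 24 h, kept direction and call under every reference, the pooled fit, the row block and each row left out, where these could be fitted. The block fit of SlIDD9 in flood shoots at 24 h, and 2 fits of SlSTOP1 for low pH minus flood in roots at 24 h without a row, left no test. Values below are log2, and where no other cause is named it was not tested. Depth cannot be given for Ct values, and 2 to 4 wells limit precision. Levels with ubiquitin over both plates kept their order with Spearman 0.91 (SlIDD9) and 0.75 (SlSTOP1).

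With ubiquitin over both plates SlIDD9 turned to 1.05 in low pH roots at 24 h, and to 0.45 for low pH minus salt and 0.27 for low pH minus flood in roots at 24 h and 0.092 for low pH minus flood in shoots at 2 h. SlSTOP1 turned to -1.81 in low pH roots at 24 h, -0.62 in flood roots at 24 h, -0.33 in low pH shoots at 2 h and 0.50 in salt shoots at 24 h. Its differences turned to -1.19 for low pH minus flood in roots at 24 h, -0.97 for low pH minus salt in shoots at 2 h, and for roots minus shoots to -0.0033 under flood at 2 h, -1.05 under low pH and -0.11 under salt at 24 h. Its calls in low pH roots at 2 h (2.08) and low pH shoots at 24 h (-0.76) were lost, which left 0 comparisons with SlSTOP1 lower. It gained calls for low pH minus salt in roots at 24 h (-2.20), low pH minus flood in shoots at 2 h (-1.46) and low pH minus salt in shoots at 24 h (-1.26).

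Against the mean of the other targets SlIDD9 turned to 1.14 in low pH roots at 24 h, -0.80 in low pH and -0.61 in flood shoots at 2 h. Its differences turned to 0.37 for low pH minus salt and 0.63 for low pH minus flood in roots at 24 h, and to 0.012 for roots minus shoots under low pH at 24 h. It lost calls in flood shoots at 24 h (0.76), for low pH minus flood in shoots at 2 h (-0.19) and for roots minus shoots under flood at 24 h (-0.25), and gained one in salt roots at 24 h (0.77). SlSTOP1 turned to -0.51, -0.38 and -1.01 in low pH, salt and flood roots at 24 h, -0.43, -0.68 and -0.046 in low pH, salt and flood shoots at 2 h and -0.61 in flood shoots at 24 h. It lost its call in low pH roots at 2 h (1.23) and gained one in salt shoots at 24 h (-1.83), which made 0 comparisons with SlSTOP1 higher and 4 lower.

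With no reference gene SlIDD9 turned to 3.57 in low pH roots at 24 h, 1.39 for low pH minus salt and 1.08 for low pH minus flood there, and 0.65 for roots minus shoots under low pH at 24 h. It lost calls for low pH minus flood in shoots at 2 h (-0.12) and roots minus shoots under flood at 24 h (-0.094), and gained them in salt (2.18) and flood (2.48) roots at 24 h, so that it was higher in 8 comparisons. SlSTOP1 turned to -0.62 in low pH shoots at 2 h, -0.88 for low pH minus salt in roots at 2 h, -0.39 for low pH minus flood in roots at 24 h and -1.37 for low pH minus salt in shoots at 2 h. It lost its call in low pH roots at 2 h (2.38). It gained calls in salt roots at 2 h (3.26) and 24 h (1.96) and salt shoots at 2 h (0.75), which made 5 comparisons with SlSTOP1 higher. Further gains were low pH minus salt in roots (-1.26) and shoots (-1.06) at 24 h and low pH minus flood in shoots at 2 h (-1.68), and roots minus shoots under salt at 2 h (2.51) and 24 h (2.43) and under low pH at 24 h (2.23).

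In one fit over all groups SlIDD9 lost calls for low pH minus salt (1.37) and minus flood (1.18) in roots at 2 h, low pH minus flood in shoots at 2 h (-0.89) and roots minus shoots under flood at 2 h (1.45). SlSTOP1 lost its calls in flood shoots at 2 h (1.17) and 24 h (1.31) and low pH shoots at 24 h (-0.74), leaving 0 lower. It gained them in salt roots at 2 h (1.73), for low pH minus salt (2.06) and minus flood (2.40) in roots at 2 h and for roots minus shoots under low pH at 2 h (3.10).

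The well rows share only a position, since wells of one row did not deviate together throughout (correlations of -0.18 to 0.28, above 0.1 in 5 of 12 comparisons). With the well row as replicate block SlIDD9 lost calls for low pH minus salt (1.43) and minus flood (1.24) in roots at 2 h and roots minus shoots under flood at 2 h (1.35), and values in flood roots at 24 h turned to -0.037 for SlIDD9 and -0.21 for SlSTOP1. With irregular wells in plate order SlIDD9 lost the call for roots minus shoots under flood at 24 h (-2.13) and gained one for low pH minus flood in shoots at 24 h (0.76). Reading these wells on the second plate alone, chosen after seeing the data, changed no call or direction.

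By the exact permutation test, adjusted over all targets, SlIDD9 lost its calls in roots at 2 h (3.56 under low pH, 2.19 under salt, 2.38 under flood) and in shoots (-5.66 under salt at 2 h, and 4.15 under low pH, -2.34 under salt and 3.32 under flood at 24 h). SlSTOP1 lost those in low pH roots (3.79) and flood shoots (1.17) at 2 h and low pH shoots at 24 h (-0.74). This left 0 comparisons with SlIDD9 higher, 0 lower, 1 with SlSTOP1 higher and 0 lower. The SlIDD9 losses in shoots at 24 h were fixed beforehand, since 3 wells against 3 cannot give an exact p under 0.10. The same holds in low pH roots and salt shoots at 2 h, where 4 wells against 2 cannot go under 0.0667. The test could not decide on these calls. In the other comparisons it has little room below 0.05. Adjustment over all 12 comparisons changed no call. Times and genes as labelled gave SlIDD9 1.97 in low pH and 2.07 in flood shoots at 2 h, past the threshold, and turned it to -1.49 and -0.91 at 24 h. It gave 1.63, 1.20 and 1.30 in low pH, salt and flood roots at 2 h, and -4.08 at 2 h and -1.38 at 24 h in salt shoots. With arithmetic means SlIDD9 in low pH shoots at 2 h turned to -0.050 and SlSTOP1 in flood roots at 24 h to -0.30. With one ubiquitin reference for both genes, or none, the SlIDD9 response less that of SlSTOP1 turned to 3.13 in low pH roots at 2 h, 2.86, 0.21 and 1.39 in low pH, salt and flood roots at 24 h and 1.35 in low pH shoots at 2 h. It moved to 4.44, -3.84 and 1.35 in low pH, salt and flood shoots at 24 h.

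Leaving out each well row changed calls or direction as follows. In roots SlSTOP1 ran from 2.05 to 5.26 under low pH and 1.02 to 2.54 under salt at 2 h, and from 0.26 to 2.06 under salt and -0.19 to 0.78 under flood at 24 h. In roots at 24 h SlIDD9 ran from -0.66 to -0.31 under low pH, -0.22 to 0.16 under salt and -0.047 to 0.26 under flood. In shoots at 2 h SlIDD9 ran from -0.79 to 0.37 under low pH, -6.35 to -4.50 under salt and 0.068 to 1.43 under flood, and SlSTOP1 from 0.42 to 1.19 under low pH and 0.92 to 1.38 under flood. In shoots at 24 h SlSTOP1 ran from -0.99 to -0.57 under low pH and -0.40 to 0.11 under salt. For SlIDD9 low pH minus salt ran from 1.21 to 1.63 in roots at 2 h, -0.82 to -0.084 in roots at 24 h and 4.86 to 6.55 in shoots at 2 h. Low pH minus flood ran from 1.08 to 1.28 in roots at 2 h, -0.85 to -0.29 in roots at 24 h and -1.07 to -0.76 in shoots at 2 h. Roots minus shoots ran from 1.06 to 2.24 for SlIDD9 under flood at 2 h. For SlSTOP1 it ran from 0.86 to 4.84 under low pH, 0.52 to 2.29 under salt and -0.38 to 1.03 under flood at 2 h, and from 0.89 to 1.90 under low pH and 0.60 to 2.46 under salt at 24 h. The number of comparisons with SlIDD9 lower ran from 1 to 2 and with SlSTOP1 lower from 0 to 1.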
